A study of Mesocricetus auratus with 8 samples.

Results

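The genes examined were 45 genes of DNA replication and S phase in hamster satellite cells (SCs), the muscle stem cells, before and after 24 h in the cold. They were taken by gene symbol from a list covering origin licensing, the replicative helicase, DNA polymerases, the sliding clamp, strand binding, nucleotide supply, the switch into S phase and chromatin assembly. All 45 had values in the deposited table, out of 17590 genes with values, and all 45 were among the 12506 genes with enough reads to be tested. For each of the 45, identifier and symbol matched the same gene in a RefSeq annotation of the hamster.

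SCs were prepared from the hindlimb muscles of sexually mature male Syrian hamsters (Slc:Syrian, genotype WT) and purified by preplating. Both groups spent 48 h in growth medium at 37°C and then 24 h at 37°C in growth medium with 100 mM HEPES, a buffer that holds the pH. The control group (n = 4 libraries) was collected at that point, and the cold group (n = 4 libraries) after a further 24 h at 4°C in the same medium. Titles place every control on day 3 of culture, whereas the treatment labels of control replicates 1 to 4 read 3, 4, 5 and 6 days at 37°C. By the titles, cold libraries were older in culture by the length of the exposure, and no culture held at 37°C for that extra time was analysed here, so cold and added time in culture cannot be told apart. The study calls them biological replicates (n = 4 per group), but the labels do not say which replicates came from separate animals. The p-values therefore measure the spread between these libraries.

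Before a cell copies its DNA, the origin recognition complex, Cdc6 and Cdt1 load the Mcm2-7 ring onto origins, a step called licensing. At the start of S phase, Cdc45 and the GINS complex join the ring to form the active helicase, primase and the DNA polymerases copy the strands, and Pcna, a ring-shaped clamp set in place by the replication factor C complex, holds the polymerases on the template. Many of these genes are transcribed together under the E2F transcription factors and are low in resting cells, and their RNA is widely used as a sign of cycling cells. SCs are quiescent in resting muscle and proliferate in growth medium as myoblasts, which leave the cell cycle when they differentiate.

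Replication genes were well expressed in both groups. Levels are given as TPM, a measure of transcript abundance that the authors scaled for gene length and library size, so levels of different genes can be compared. Over the 8 libraries the mean level of a member ran from 8.36 TPM for Mcm10 to 312 TPM for Pcna, with a median of 57.2 TPM, against 16.1 TPM for all genes tested. A total of 9 members reached 100 TPM (Pcna, Mcm7, Rrm2, Tk1, Rrm1, Mcm3, Mcm5, Mcm6 and Rfc5) and 5 stayed under 20 TPM (Gins3, Pole2, Pola1, Pole and Mcm10). Expected read counts behind these levels lay between 201 and 5618 per member and library.

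The order of the members hardly differed between libraries. Pcna was the highest member in 8 of 8 libraries, Mcm7 ranked next in 8 of 8, and Mcm10 was the lowest in 7 of 8. Rank correlations of the 45 levels between any pair of libraries ran from 0.986 to 0.997, a description across genes of libraries that share one cell preparation method and similar depth. Of the 44 pairs of neighbours in the order of mean level, only 4 did not overlap in their 8 values: Pcna over Mcm7, Rfc5 over Uhrf1, Gmnn over Chaf1a and Cdt1 over Gins3. The ranges of the other neighbours overlapped over the 8 libraries. Compared within libraries, 8 of the 44 pairs of neighbours kept one order in all 8, these 4 and Mcm7 over Rrm2, Rpa1 over Pold2, Mcm2 over Lig1 and Pola1 over Pole.

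Subunits of one complex could be set side by side. The 6 subunits of the Mcm2-7 ring, which are present in equal number in the assembled helicase, lay between 75.2 TPM (Mcm2) and 179 TPM (Mcm7), a 2.38-fold range. Rpa1 and Rpa2, subunits of the protein that coats single-stranded DNA, lay at 92 and 93.8 TPM, and Rrm1 and Rrm2, the subunits of ribonucleotide reductase, at 142 and 152 TPM. The range was wider among the 4 GINS subunits, from 15.2 TPM for Gins3 to 59.4 TPM for Gins4, and among the 4 clamp loader subunits listed, from 38.9 TPM for Rfc3 to 124 TPM for Rfc5. Pola1, the catalytic subunit of polymerase alpha, was at 12.3 TPM and its primase partner Prim1 at 43.2 TPM.

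**Figure D1:**
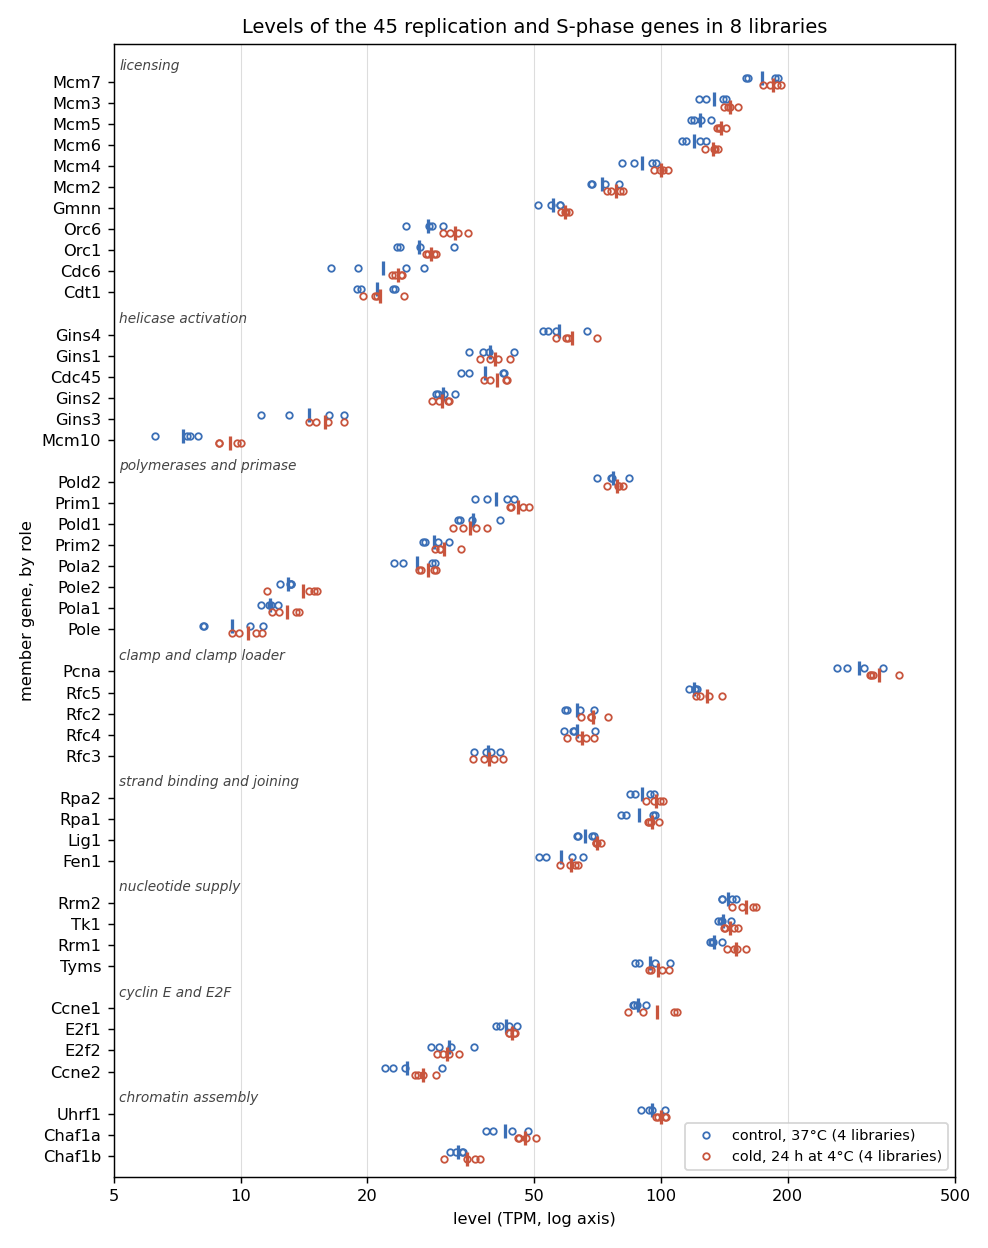
Level of each of the 45 members in TPM on a log axis, ordered by role and then by mean level, with open circles for single libraries (blue, control; red, cold; n = 4 each) and upright bars for group means. Blue and red circles overlap for all except 5 genes, and the spread between genes, from 8.36 to 312 TPM, is far wider than the shift between groups.

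The comparison of cold with control asks whether cold exposure changed the RNA of the replication machinery. Differences were small, and most of the log2 fold changes were above 0. In the fit to all genes, 41 of the 45 members had a log2 fold change above 0 in the cold libraries, where 52.9% of all genes tested did, and the median log2 fold change of the members was 0.091, a difference of 6.49%, against 0.0071 for all genes tested. In the fit with replicate numbers as a block, that median was 0.091, and 0.0599 without pair 1. The 45 values ran from −0.041 for Pold1 to 0.35 for Mcm10. In this fit Pold1 (−0.041), Gins2 (−0.026), E2f2 (−0.024) and Rfc3 (−0.01) lay below 0, but none of the 4 kept that sign when each of the 8 libraries was left out in turn. Pold1 was 0.0166 without control replicate 3, Gins2 0.00154 without cold replicate 4, E2f2 up to 0.0259 (without control replicate 4) and Rfc3 up to 0.0228 (without control replicate 1, control replicate 3 or cold replicate 1 it was above 0). Of the 41 above 0, 6 fell below it without at least 1 library: Cdt1, Cdc6, Gins1, Pold2, Rfc4 and E2f1. No member met the study's definition of a DEG, an absolute log2 fold change reaching 1 together with an adjusted p under 0.05, which 0.04% of all genes tested met. With the replicate block, again 0 members met it, beside 0.848% of all genes tested. The study's own analysis reported more DEGs by this definition than the fit without the block, all of them lower in the cold.

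No member reached an adjusted p under 0.05 at any fold change in this edgeR quasi-likelihood fit with Benjamini-Hochberg adjustment, higher (0% of all genes tested) or lower (0.072%). At an unadjusted p under 0.05, 9 members were higher (Orc6, Mcm3, Mcm4, Mcm5, Mcm6, Mcm10, Prim1, Rrm1 and Chaf1a) and 0 were lower, beside 2.57% and 4.13% of all genes tested in these directions. DESeq2, fitted to the same counts, gave the same 9 members at an unadjusted p under 0.05 and 0 after adjustment. The share of all genes tested at that p by DESeq2 was not counted. The 95% intervals of all 45 log2 fold changes lay within 1 in either direction and those of 44 within 0.5, the exception being Mcm10 with an upper bound of 0.55. The lowest bound of any member was −0.20, for Pold1. The 9 intervals wholly above 0 were those of the 9 members named above and restate that result. Shares of all genes tested were not counted for these intervals. In bulk RNA, more cycling cells and more RNA per cycling cell cannot be told apart. The study also labelled proliferating cells with EdU, a thymidine analog, and reported that labelled hamster SCs were absent after cold exposure. Proliferation was restored on rewarming. The RNA levels given here are therefore no measure of DNA copying in the cold, and their relation to the EdU result was not tested.

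**Figure D2:**
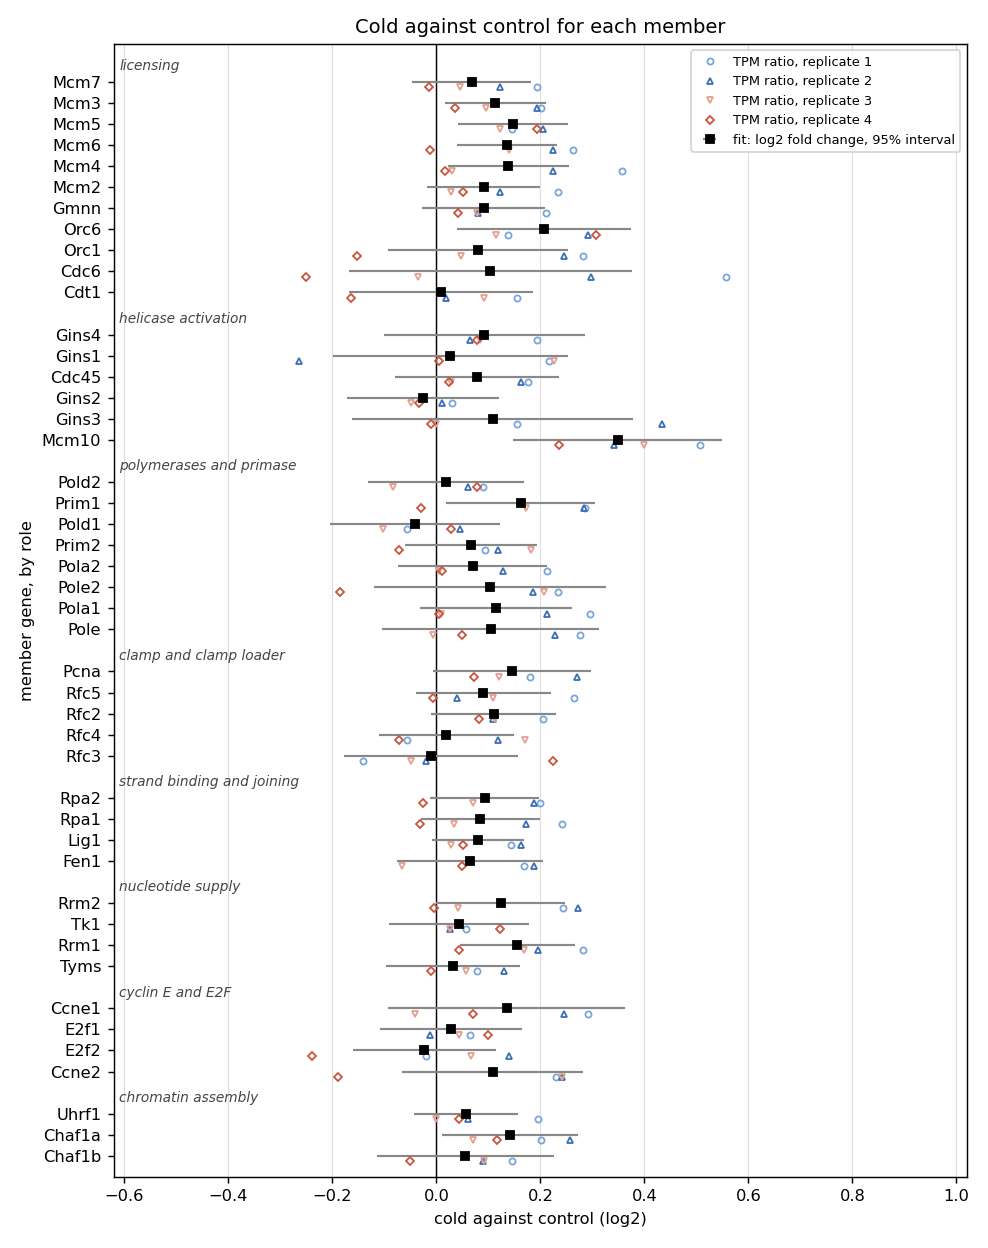
Log2 fold change of each member, cold against control (black squares, edgeR fit; grey lines, 95% interval), with the 4 log2 TPM ratios of libraries sharing a replicate number (coloured markers). Squares of 41 of 45 genes lie right of 0 and none passes 0.35, and the ratios of replicates 1 and 2 lie mostly further right than those of replicates 3 and 4.

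Libraries with the same replicate number deviated together, so the fit was repeated with the replicate number as a block. It gave 5 members higher at an adjusted p under 0.05 (1.26% of all genes tested were higher) and 0 lower (4.07%). They were Mcm10, Rrm1, Mcm5, Pcna and Mcm6, with log2 fold changes of 0.14 to 0.35. The count depended on single pairs of libraries: it was 2 without pair 1 (Mcm10 and Mcm5), 1 without pair 2 (Mcm10), 1 without pair 3 (Mcm10) and 9 without pair 4. The share of all genes tested that these 4 fits called higher moved as well, at 0.327%, 0.128%, 0.818% and 2.56%. Mcm10 alone was called in the blocked edgeR fit and in each of these 4 fits. DESeq2 with the same block called 1 member, Rrm1, with an adjusted p of 0.0224, and 0.312% of all genes tested as higher, and gave Mcm10 an adjusted p of 0.0644.

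**Figure D3:**
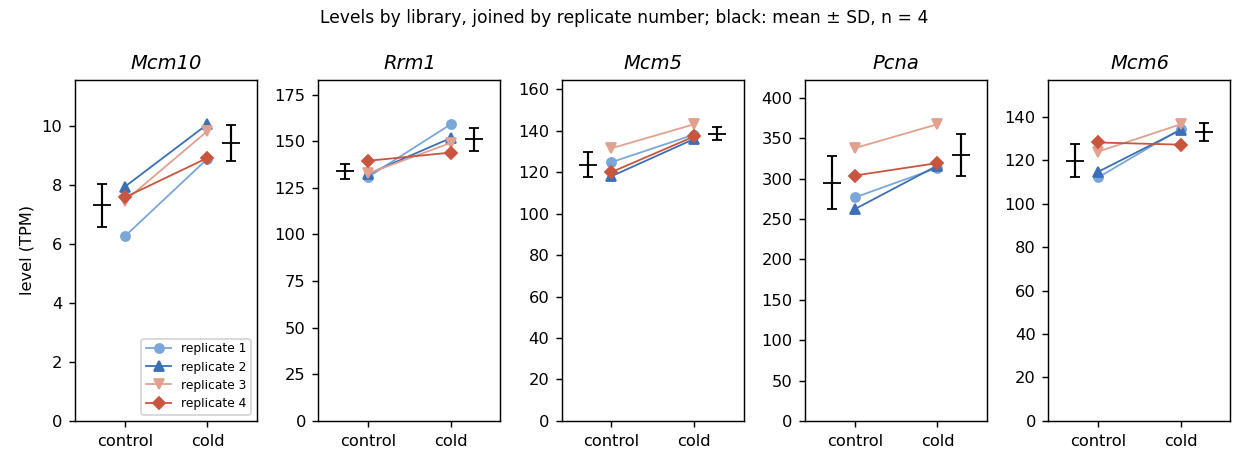
Levels in TPM of the 5 members called in the blocked fit, on axes from 0, with lines joining control and cold libraries of one replicate number and black marks for the mean ± SD (n = 4). All lines rise except that of Mcm6 replicate 4, from 128 to 127 TPM.

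Taken pair by pair on the TPM scale, 17 members were higher in the cold library of 4 of 4 pairs (12.8% of all genes tested) and 0 were lower in 4 of 4 (10.5%). The pairs did not contribute equally. The median log2 ratio over the members was 0.199 in pair 1, 0.163 in pair 2, 0.0575 in pair 3 and 0.017 in pair 4, with 41, 42, 35 and 26 of the 45 members higher. Over all genes tested these medians were 0.0562, 0.0504, 0.012 and −0.037, and 61.5%, 60.8%, 53.8% and 40.1% of genes were higher. Cold and control values did not overlap for 5 members, with the cold higher (2.27%), and for 0 with the cold lower (2.41%). These were Mcm5, Mcm10, Gmnn, Lig1 and Rrm1, each with the smallest p that the exact permutation test of 4 against 4 libraries allows, 0.0286 (two-sided, 70 arrangements), and with an adjusted p of at least 0.611 over all genes tested. By CPM, the counts scaled to library size in the edgeR fit, 10 members did not overlap, with the cold higher (2.06%).

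The control libraries differed among themselves more than the cold libraries did. The summed level of the 45 members was 2897, 2903, 3225 and 3172 TPM in control replicates 1 to 4 and 3298, 3239, 3385 and 3240 TPM in cold replicates 1 to 4. Every cold library was above every control library, but control replicates 3 and 4 stood much nearer to the cold libraries than control replicates 1 and 2 did. Control replicate 1 held the lowest of the 8 values for 21 members and control replicate 2 for 14, while cold replicate 3 held the highest for 17. Control replicates 1 and 2 were both below control replicates 3 and 4 in 32 of 45 members (47.2% of all genes tested showed this order), and the same order held among the cold libraries in 15 members (37.3%). The median coefficient of variation was 7.47% in control and 5.05% in cold libraries, smaller in the cold for 36 of 45 members, beside 9.63% and 8.13% over the 11420 genes of at least 1 TPM, of which 58.9% were less variable in the cold.

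Markers of differentiating muscle differed between the same libraries. The summed level of Acta1, Myog, Myh3, Mymk, Tnnt1 and Ckm was 2722, 2692, 1299 and 1398 TPM in control replicates 1 to 4 and 994.3, 1168, 672 and 590.2 TPM in cold replicates 1 to 4. All 6 had log2 fold changes below 0 (median −1.51), 4 at an unadjusted p under 0.05 and 0 after adjustment by edgeR, and 6 of 6 at an adjusted p under 0.05 in the blocked edgeR fit. Of all genes tested, 4.13%, 0.072% and 4.07% were lower by these 3 measures. The study named Acta1, Myh3 and Tnnt1 among its DEGs, all lower in the cold. Control replicates 1 and 2 thus had the highest sums of these markers and the lowest sums of the replication genes, and every cold library had a lower sum of the markers and a higher sum of the replication genes than every control. The part of this difference in the replication result was not tested.

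**Figure D4:**
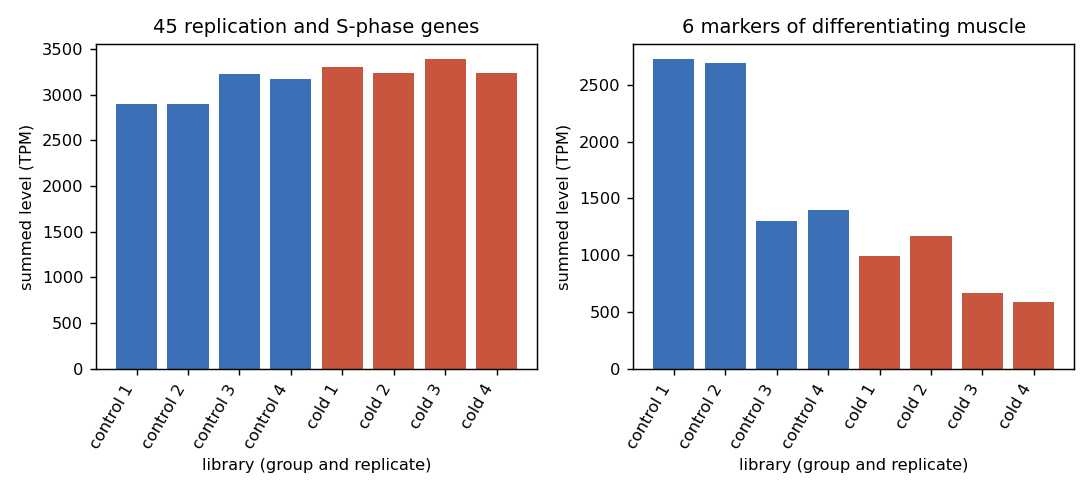
Summed level in TPM per library of the 45 members (left) and of 6 markers of differentiating muscle (right), on bars from 0, control in blue and cold in red. The left bars stand between 2897 and 3385 TPM and the right bars between 590.2 and 2722 TPM, with control replicates 1 and 2 lowest on the left and highest on the right.

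Myoblast markers were present in every library, Myod1 at 424 to 694 TPM, Des at 724 to 924 TPM and Pax7 at 10.8 to 16.1 TPM. The summed level of 8 SC and myoblast markers was 1832 to 2261 TPM in the controls and 1756 to 2101 TPM in cold libraries. The unblocked edgeR fit called 0 of the 8. The blocked edgeR fit called Megf10 higher and Cdh15, Itga7 and Myod1 lower at an adjusted p under 0.05 (1.26% and 4.07% of all genes tested). Of the 8, 1 was higher in 4 of 4 pairs and 3 were lower, beside 12.8% and 10.5% of all genes tested. Fibroblast markers (7 with values) summed to 1005, 1001, 1323 and 1517 TPM in control replicates 1 to 4. In cold replicates 1 to 4 they summed to 1062, 987, 1339 and 1475 TPM, so replicates 1 and 2 were the lowest in both groups. The 4 markers of smooth muscle and pericytes summed to 1155 to 1981 TPM in control and 990.1 to 1288 TPM in cold libraries. Nearly all of it was Acta2, which myoblasts also express and which the blocked edgeR fit alone called lower. The part of these differences in the replication result was not tested. Endothelial (5), macrophage (5) and glial (3) markers summed to at most 4.14, 55.7 and 2.77 TPM in any library, most of the macrophage sum being Cd68. Pecam1 and Ptprc, which define endothelium and leukocytes, were at most 0.89 and 0.03 TPM. Library depth was 16530747 to 18533801 expected counts.

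All 11 licensing genes were higher by log2 fold change (median 0.10), 6 in 4 of 4 pairs, 5 at an unadjusted p under 0.05, and 2, Mcm5 and Mcm6, at an adjusted p under 0.05 in the blocked edgeR fit. Of all genes tested, 52.9% were higher by log2 fold change, 12.8% in 4 of 4 pairs, 2.57% at an unadjusted p under 0.05 and 1.26% in the blocked fit, shares that apply to the other roles below as well. The summed level of the 11 genes was 866 ± 62.8 TPM (SD, n = 4) in control and 945 ± 21.1 TPM in cold libraries. Mcm7, the most abundant subunit of the ring (NCBI Gene 101837273), was at 159, 161, 187 and 190.2 TPM in control replicates 1 to 4 and 182, 175, 193 and 188 TPM in cold replicates 1 to 4. The groups overlapped, with the lowest values in control replicates 1 and 2, and the log2 fold change was 0.068 (standard error of the fit, SE, 0.051, adjusted p = 0.978, edgeR), or 0.0372 and 0.0415 without control replicate 1 or 2. Mcm3, another subunit of the ring, was at 123, 128, 142 and 141 TPM in control replicates 1 to 4 and 141, 146, 152 and 144 TPM in cold replicates 1 to 4. Its highest control value was just above its lowest cold value, and the log2 fold change was 0.11 (SE 0.043, adjusted p = 0.643, edgeR).

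Mcm5 and Mcm6 passed only in the blocked fit and are described because of it, a choice made with their values in view. Mcm5 was at 125, 118, 132 and 120 TPM in control replicates 1 to 4 and 138, 136, 143 and 137 TPM in cold replicates 1 to 4, and its groups did not overlap. Its log2 fold change was 0.15 in the blocked edgeR fit (SE 0.038, adjusted p = 0.0253) and 0.15 without the block (SE 0.047, adjusted p = 0.474). Mcm6 was at 112, 115, 124 and 128 TPM in control replicates 1 to 4 and 134, 134, 136 and 127 TPM in cold replicates 1 to 4, with a single overlap between control replicate 4 and cold replicate 4. Its log2 fold change was 0.14 with the block (SE 0.039, adjusted p = 0.0486, edgeR) and 0.14 without it (adjusted p = 0.463, edgeR). The other ring subunits, Mcm2 and Mcm4, had log2 fold changes of 0.091 and 0.14.

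Orc6, a subunit of the origin recognition complex and one of the 3 members with the highest fold change, was at 28.6, 24.7, 30.4 and 28.1 TPM in control replicates 1 to 4 and 31.4, 30.2, 32.9 and 34.8 TPM in cold replicates 1 to 4. The cold value was the higher one in each pair, and only the lowest of the cold values fell below the highest control value, that of replicate 3. The log2 fold change was 0.21 (SE 0.074, adjusted p = 0.588, and 0.095 with the block, edgeR). Orc1, an ATP-binding subunit of the same complex, had a mean of 26.6 ± 3.95 TPM at 37°C and of 28.4 ± 0.695 TPM after cold exposure (SD, n = 4) and a log2 fold change of 0.081. Cdc6 itself had the widest control spread of any member, a coefficient of variation of 23% against 2.58% in the cold, with 16.4 TPM in control replicate 1 and 27.3 TPM in control replicate 4. Its log2 TPM ratio was 0.56 in pair 1 and −0.25 in pair 4, and its fitted log2 fold change was 0.10 with a 95% interval of −0.17 to 0.38. Without control replicate 1 the fitted value was −0.00264. Cdt1, the Mcm loader, had a log2 fold change of 0.0092, and of −0.0523 to 0.0402 over the fits without 1 library. Gmnn, the inhibitor of Cdt1 that prevents licensing again within the same cycle, was at 55.2 ± 3.1 TPM at 37°C and 59.2 ± 1.08 TPM after cold exposure with no overlap (SD, n = 4), and had a log2 fold change of 0.091 (adjusted p = 0.885, edgeR).

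Among the 6 helicase activation genes, 5 were higher and 1 was lower by log2 fold change (median 0.085), with 1 call, Mcm10, in the blocked edgeR fit. Mcm10, which helps switch the loaded ring into the moving helicase (NCBI Gene 101829106), was at 6.25, 7.93, 7.45 and 7.57 TPM in control replicates 1 to 4 and 8.88, 10.1, 9.82 and 8.91 TPM in cold replicates 1 to 4. Every cold value was above every control value, and the member with the lowest level thus had the largest fold change of the 45. The log2 fold change was 0.35 (95% interval 0.15 to 0.55, SE 0.089, adjusted p = 0.301, edgeR). With the block it was 0.35 (SE 0.071, adjusted p = 0.00402, edgeR), and over the fits without one pair it lay between 0.313 and 0.375, with edgeR adjusted p-values between 0.00501 and 0.0314.

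Gins4, the most abundant GINS subunit, was at 52.5, 53.7, 56.2 and 66.6 TPM in control replicates 1 to 4 and 60.1, 56.2, 59.5 and 70.3 TPM in cold replicates 1 to 4. Replicate 4 was the highest library of both groups, and the log2 fold change was 0.092 (SE 0.086, adjusted p = 0.999, edgeR). It was 0.0244 without cold replicate 4 and 0.155 without control replicate 4. Gins1 was at 37.6, 44.7, 35 and 39 TPM in control replicates 1 to 4 and 43.7, 37.2, 41 and 39.2 TPM in cold replicates 1 to 4. Gins2 was at 30.5, 29.4, 32.4 and 29.2 TPM in control replicates 1 to 4 and 31.2, 29.7, 31.3 and 28.5 TPM in cold replicates 1 to 4. Neither subunit parted the groups, with log2 fold changes of 0.027 (SE 0.10) and −0.026 (SE 0.065). Over the fits without 1 library these ran from −0.0401 to 0.109 for Gins1, below 0 without control replicate 3 or cold replicate 1, and from −0.0605 to 0.00154 for Gins2, above 0 without cold replicate 4. Gins1 had opposite signs in pair 1 (0.22) and pair 2 (−0.26). Gins3 and Cdc45, the remaining parts of the active helicase, had log2 fold changes of 0.11 and 0.078. Without 1 library these ran from 0.00954 to 0.193 and from 0.0303 to 0.112.

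Of the 8 genes of polymerases and primase, 7 were higher by log2 fold change (median 0.087), 2 in 4 of 4 pairs, and 0 were called in either edgeR fit. Pold2, an accessory subunit of polymerase delta, was the most abundant at 76.5, 76.2, 83.9 and 70.3 TPM in control replicates 1 to 4 and 81.4, 79.5, 79.2 and 74.2 TPM in cold replicates 1 to 4. The cold values all lay within the range of the controls, with a log2 fold change of 0.018 (SE 0.067, adjusted p = 0.999, edgeR), which fell below 0 without control replicate 4 (−0.0365), cold replicate 1 (−0.00614) or cold replicate 2 (−0.00289). Pold1, the catalytic subunit of the same polymerase, was at 33.3, 32.8, 41.5 and 35.6 TPM in control replicates 1 to 4 and 32, 33.9, 38.6 and 36.3 TPM in cold replicates 1 to 4. It had the lowest log2 fold change of the 45, −0.041 (95% interval −0.20 to 0.12, adjusted p = 0.999, edgeR), and was lower in only 2 of 4 pairs. Without control replicate 3 it was 0.0166.

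Prim1, which makes the RNA primers from which polymerases extend, was at 38.5, 36.1, 43 and 44.8 TPM in control replicates 1 to 4 and 47, 43.9, 48.5 and 43.8 TPM in cold replicates 1 to 4. Its cold libraries exceeded control replicates 1, 2 and 3, whereas control replicate 4 lay within them, and the log2 fold change of 0.16 was the third highest of the 45 (SE 0.064, adjusted p = 0.664, and 0.12 with the block, edgeR). Prim2, its regulatory partner, had a log2 fold change of 0.067, and of 0.0274 to 0.0906 over the fits without 1 library. Pola1 and Pola2 of polymerase alpha had 0.11 and 0.07, and Pole and Pole2 of polymerase epsilon, which copies the leading strand, had 0.10 and 0.10. Without 1 library, Pola1 ran from 0.0761 to 0.152 and Pola2 from 0.0246 to 0.102. Pole ran from 0.0464 to 0.18 and Pole2 from 0.0573 to 0.187.

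The clamp and its loader gave 4 members higher and 1 lower by log2 fold change (median 0.09). Pcna, the clamp itself (NCBI Gene 101830416), was at 277, 262, 338 and 304 TPM in control replicates 1 to 4 and 314, 316, 368 and 319.5 TPM in cold replicates 1 to 4. The cold value was the higher one in each of the 4 pairs, but control replicate 3 was above cold replicates 1, 2 and 4, so the groups overlapped. The log2 fold change was 0.15 without the block (95% interval −0.0074 to 0.30, adjusted p = 0.785, edgeR) and 0.15 with it (SE 0.038, adjusted p = 0.0268, edgeR). Rfc5, the most abundant loader subunit listed, was at 116, 120.4, 121 and 122 TPM in control replicates 1 to 4 and 139.8, 124, 130.3 and 121 TPM in cold replicates 1 to 4. Cold replicates 1, 2 and 3 stood above all controls, cold replicate 4 lay among them, and the log2 fold change was 0.09 (SE 0.058, adjusted p = 0.929, edgeR), or 0.0412 without cold replicate 1. The subunits Rfc2, Rfc3 and Rfc4 had log2 fold changes of 0.11, −0.01 and 0.019. Without 1 library the value ran from −0.0595 to 0.0228 for Rfc3 and from −0.0112 to 0.0513 for Rfc4, each changing sign in 3 of 8 fits.

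All 4 genes of strand binding and joining were higher by log2 fold change, within a narrow band from 0.065 to 0.093, and 0 were called. Rpa2 was at 86.9, 84.5, 96 and 94 TPM in control replicates 1 to 4 and 99.7, 96.2, 101 and 92.4 TPM in cold replicates 1 to 4. Rpa1 was at 80.2, 82.5, 96.8 and 95.6 TPM in control replicates 1 to 4 and 94.9, 93, 99.1 and 93.5 TPM in cold replicates 1 to 4. For both, control replicates 1 and 2 were low and the other controls lay among the cold libraries. Their log2 fold changes were 0.093 (SE 0.046) and 0.085 (SE 0.051), neither past the threshold in either edgeR fit, and that of Rpa1 was 0.0494 without control replicate 1. Lig1, the ligase that seals lagging-strand fragments, had a mean of 66.1 ± 3.38 TPM at 37°C and of 70.6 ± 0.897 TPM after cold exposure (SD, n = 4) without overlap, and a log2 fold change of 0.079 (adjusted p = 0.826, edgeR). Fen1, the nuclease that trims those fragments, had 0.065, and 0.0216 to 0.109 over the fits without 1 library.

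The 4 genes of nucleotide supply were all higher by log2 fold change (median 0.084), with 1 call, Rrm1, in the blocked edgeR fit. Ribonucleotide reductase turns ribonucleotides into the building blocks of DNA. Rrm1, its large subunit, which was singled out after its values were seen, was at 131, 132, 133 and 139.5 TPM in control replicates 1 to 4 and 159, 152, 149 and 144 TPM in cold replicates 1 to 4. The groups did not overlap, and the gap was widest in pair 1 and narrowest in pair 4. Its log2 fold change was 0.16 (SE 0.049, adjusted p = 0.464, edgeR), and 0.15 with the block (SE 0.037, adjusted p = 0.0157, edgeR).

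Rrm2, the small subunit, was at 139.7, 139.7, 151 and 148 TPM in control replicates 1 to 4 and 165, 169, 156 and 147 TPM in cold replicates 1 to 4. Cold replicates 1, 2 and 3 were above all controls, whereas replicate 4 differed by less than 1 TPM between groups, and the log2 fold change was 0.12 (SE 0.055, adjusted p = 0.749, edgeR), or 0.0808 without cold replicate 2. Tk1, the thymidine kinase of S phase, was at 147, 139.7, 139 and 137 TPM in control replicates 1 to 4 and 152, 142, 141 and 149 TPM in cold replicates 1 to 4. It was higher in 4 of 4 pairs by small amounts, with overlapping groups and a log2 fold change of 0.044 (SE 0.06, adjusted p = 0.999, edgeR). That value was 0.0153, 0.0184 and 0.016 without control replicate 4, control replicate 3 or cold replicate 1, and 0.0751 and 0.0673 without control replicate 1 or cold replicate 3. Tyms, which makes thymidylate, had a mean of 94.3 ± 8.39 TPM at 37°C and of 98.4 ± 4.99 TPM after cold exposure (SD, n = 4) and a log2 fold change of 0.032. Without 1 library that value ran from 0.000517 to 0.0723.

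Cyclin E and the E2F factors, which drive entry into S phase, gave 3 members higher and 1 lower by log2 fold change (median 0.068), none in 4 of 4 pairs and 0 called. Ccne1 was at 87.7, 92.2, 85.7 and 86.5 TPM in control replicates 1 to 4 and 107, 109, 83.4 and 90.8 TPM in cold replicates 1 to 4. Cold replicates 1 and 2 were the highest of the 8 libraries and cold replicate 3 the lowest, which gave the cold group a coefficient of variation of 13% and a log2 fold change of 0.13 with a 95% interval of −0.092 to 0.36 (adjusted p = 0.98, edgeR). Without cold replicate 1, 2 or 3 it was 0.0811, 0.0627 and 0.209. E2f1 was at 41.5, 45.4, 43.5 and 40.6 TPM in control replicates 1 to 4 and 43.4, 45.1, 44.8 and 43.5 TPM in cold replicates 1 to 4. E2f2 was at 29.7, 28.4, 31.6 and 35.9 TPM in control replicates 1 to 4 and 29.3, 31.3, 33.1 and 30.4 TPM in cold replicates 1 to 4. Neither E2F gene parted the groups: the log2 fold changes were 0.029 (SE 0.061) and −0.024 (SE 0.061). Both changed sign without control replicate 4, to −0.0136 and 0.0259, and E2f2 also without cold replicate 1 (0.000748). Ccne2, the other cyclin E, had 0.11, with a log2 TPM ratio between 0.23 and 0.24 in pairs 1 to 3 and of −0.19 in pair 4.

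All 3 genes of chromatin assembly were higher by log2 fold change (median 0.056) and 0 were called. Uhrf1, which guides maintenance methylation to newly copied DNA, was at 89.7, 93.4, 102 and 95.2 TPM in control replicates 1 to 4 and 103, 97.4, 102 and 98.2 TPM in cold replicates 1 to 4. Control replicates 1, 2 and 4 were below every cold library, control replicate 3 lay among them, and the log2 fold change was 0.056 (SE 0.044, adjusted p = 0.99, edgeR). Chaf1a, the large subunit of the histone chaperone that acts behind the fork, was at 39.9, 38.3, 48.2 and 44.2 TPM in control replicates 1 to 4 and 45.9, 45.8, 50.6 and 47.9 TPM in cold replicates 1 to 4. It was higher in the cold in 4 of 4 pairs, with control replicate 3 among the cold libraries, and had a log2 fold change of 0.14 (SE 0.058, adjusted p = 0.7, and 0.0589 with the block, edgeR). Its partner Chaf1b had 0.056, and 0.0126 to 0.113 over the fits without 1 library.

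Another list held 58 further genes of replication and S phase that are not members, of which 55 were tested. Of these, 48 were higher by log2 fold change (52.9% of all genes tested were), with a median of 0.087. At an unadjusted p under 0.05, 10 were higher and 1 lower, beside 2.57% and 4.13% of all genes tested, and after adjustment by edgeR 0 were higher (0%) or lower (0.072%). The blocked edgeR fit called 3 higher (Dut, Wdhd1 and Dbf4, named after their values were seen) and 1 lower (Rb1), beside 1.26% and 4.07% of all genes tested. Without pair 1, 2, 3 or 4 that fit called 1, 0, 4 and 9 of the list higher, beside 0.327%, 0.128%, 0.818% and 2.56% of all genes tested, and 1 lower, Rb1, each time, beside 2.82%, 2.71%, 3.78% and 4.88%. The highest log2 fold changes were those of E2f7, a repressor among the E2F factors (0.26, adjusted p = 0.688, edgeR), Rrm2b, a small subunit of ribonucleotide reductase used outside S phase (0.24, adjusted p = 0.927, edgeR), and Dbf4, the activator of the kinase Cdc7 that fires origins (0.22, adjusted p = 0.159, and 0.00477 with the block, edgeR). Dbf4 was at 40.3, 37.5, 41.8 and 44.1 TPM in control replicates 1 to 4 and 47.8, 48.4, 48.7 and 47.6 TPM in cold replicates 1 to 4, with no overlap between groups, and it was not called without pair 2 (adjusted p = 0.0941, edgeR with the block).

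The lowest log2 fold changes of that list were those of Rb1 (−0.46), Pold4, a small subunit of polymerase delta (−0.073), and Rnaseh2a, which removes RNA from DNA (−0.066). Rb1 encodes the retinoblastoma protein, which binds E2F factors and holds their targets silent, and it was at 29.2, 26.8, 22.5 and 23.3 TPM in control replicates 1 to 4 and 19.1, 20.6, 18.2 and 17.4 TPM in cold replicates 1 to 4. Every cold value was below every control value. Its SE was 0.11 with an adjusted p of 0.267 by edgeR without the block, and the blocked edgeR fit gave −0.45 (SE 0.053, adjusted p = 1.01e-05), with adjusted p-values between 6.34e-06 and 9.43e-05 without 1 pair. E2f1 and E2f2, given above, did not part the groups, and any link of Rb1 to the replication genes was not tested.

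Mitotic genes act after replication. All 20 on a list of them were higher by log2 fold change (median 0.12, range 0.0079 to 0.22), 8 at an unadjusted p under 0.05, 0 after adjustment by edgeR and 5 in the blocked edgeR fit. The shares of all genes tested by these 4 measures were 52.9%, 2.57%, 0% and 1.26%. These 5, named after their values were seen, were Ccnb1, Kif20a, Bub1b, Mki67 and Cenpe, and the count was 1, 0, 4 and 9 without pair 1, 2, 3 or 4, where 0.327%, 0.128%, 0.818% and 2.56% of all genes tested were called higher. Mki67, a common marker of cycling cells, had a log2 fold change of 0.20 (SE 0.067, adjusted p = 0.544, and 0.021 with the block, edgeR). Pair by pair, the medians of these 20 genes were 0.212, 0.228, 0.0657 and 0.0031 on the log2 TPM scale. Over all genes tested they were 0.0562, 0.0504, 0.012 and −0.037. Pairs 1 and 2 thus had the larger ratios for these genes and for the members, and also, by smaller amounts, for all genes tested.

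**Figure D5:**
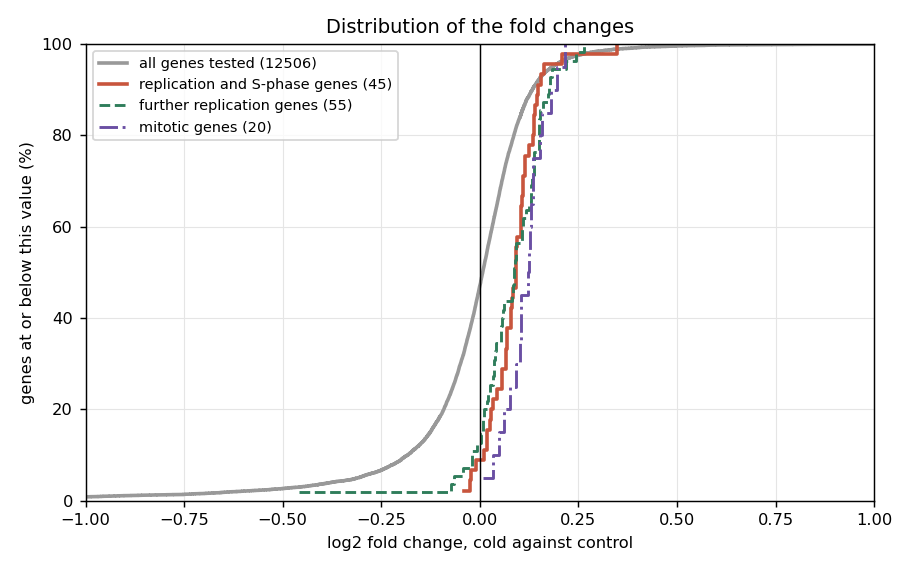
Cumulative percentage of genes at or below each log2 fold change, cold against control, for the 45 members, 55 further replication genes, 20 mitotic genes and all 12506 genes tested (drawn between −1 and 1). The 3 lists rise steeply to the right of 0, with medians of 0.091, 0.087 and 0.12, whereas all genes tested spread to both sides around 0.0071.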

How the data were processed

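RNA-seq libraries of hamster SCs (4 control, 4 cold) were compared. Per the labels and the study's methods, polyA libraries were read as 150 bp pairs. The submitters' processing notes name HISAT and HISAT2 without a version, and the genome build, annotation and counting program are not given in the sources used here. The deposited table holds, per gene and library, expected counts estimated by the authors without normalization, TPM values that the authors scaled library by library, and a signal, the authors' normalized count, which equalled the expected count, rounded up, times 1 factor per library (largest relative gap 5.17e-10). The number of per-sample columns left without a sample was 0. Depth was 16530747 to 18533801 expected counts per library, and precision from counts covers counting error only.

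Members were found by symbol. None of the 45 had decimals in its expected counts, the mark of reads divided between genes. Expected counts were rounded and fitted over the whole table with edgeR 4.0.16 (R 4.3.3; filterByExpr, TMM, quasi-likelihood test, cold against control without a covariate), with Benjamini-Hochberg adjustment over the 12506 genes tested. TPM were compared by an exact two-sided permutation test over 70 arrangements. Groups share replicate numbers 1 to 4 in their titles. Deviations from the group means correlated at 0.609 to 0.659 across genes between libraries of one number, at 0.432 to 0.591 between different numbers within replicates 1 and 2 or within 3 and 4, and at −0.609 to −0.553 otherwise. Every pair of one number passed 0.1, so the numbers were taken to pair the libraries, although much of this likeness is shared by replicates 1 and 2 and by 3 and 4. Values from a fit with the replicate block stand beside a result where a call changed. The first principal component (54.5% of variance) parted replicates 1 and 2 from 3 and 4 in both groups, and the second (17.9%) parted cold from control.

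Alternatives were DESeq2 1.42.0, RLE factors, library totals, other filters on low counts, limma 3.58.1 on log2 TPM (pseudocounts 1, 0.1 and 0.01), the replicate block and leaving out each library. The deposited factors, DESeq2 with the block and the block without each pair were chosen after seeing the data. Scripts were tested on simulated data. The members, the lists and the rule for naming genes were chosen with earlier results of these data known. By that rule, values per library are given for the 2 most abundant members of each role group, the 3 highest and 3 lowest log2 fold changes, and any member at an adjusted p under 0.05. Promoter sequences were not used here. Plots were made in Python 3.11.15 with matplotlib 3.10.9.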

Additional observations from a re-analysis of the deposited data

Results flagged for a closer look

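A library that stood apart from the other 3 of its group by the Dixon test was found for 3 of the 90 groups of values tested, 45 members in each of 2 groups, where chance flags about 1 in 20, or 4.5. Pcna was at 367.6 TPM in cold replicate 3 and between 313.6 and 319.5 TPM in the other cold libraries, and control replicate 3 was likewise the highest control library. Pole2, an accessory subunit of polymerase epsilon, was at 12.4 TPM in control replicate 1 and between 13.1 and 13.2 TPM in the other controls. Pole2 was also at 11.55 TPM in cold replicate 4 and between 14.6 and 15.2 TPM in the other cold libraries, and its log2 TPM ratio was −0.19 in pair 4 and between 0.19 and 0.23 in pairs 1 to 3.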

How the results depend on the processing

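The count of members past the definition of a DEG was 0 under every alternative, and the counts at an adjusted p under 0.05 were 0 in both directions under DESeq2, the other scalings and filters, limma on log2 TPM and leaving out each library. Only fits with the replicate block called members, each of them higher in the cold: 5 in edgeR, 1 in DESeq2 with the block, and 2, 1, 1 and 9 in edgeR with the block when pair 1, 2, 3 or 4 was left out. The block changed no other call of the members. By CPM in place of TPM, 10 members did not overlap between groups (2.06% of all genes tested). Over the fits without 1 library, 39 to 42 members had a log2 fold change above 0 and the median lay between 0.0653 and 0.102. With the block and 1 pair left out, these were 39 to 41 members and medians of 0.0599, 0.0693, 0.0945 and 0.106 without pair 1, 2, 3 or 4.

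For 24 named members under 23 settings, 520 of 552 log2 fold changes kept their direction and their side of the threshold, 17 passed it, 0 lost it and 15 reversed, each from a value near 0. With the block and 1 pair left out, Gins1 was −0.0272 (pair 1) and −0.0354 (pair 3), Pold2 was −0.00838, E2f1 −0.00421 and E2f2 0.0367 (all pair 4). Leaving out 1 library moved Gins1 between −0.0401 and 0.109, Gins2 between −0.0605 and 0.00154, Pold1 between −0.0816 and 0.0166, Pold2 between −0.0365 and 0.0466, E2f1 between −0.0136 and 0.0705, and E2f2 between −0.0589 and 0.0259. The cause was not tested beyond the libraries left out. Every member had at least 201 counts in each library. The median standard error of their log2 fold changes was 0.062, and 0.046 in the blocked edgeR fit. What limits that precision was not tested.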
